A study of Saccharomyces cerevisiae with 3 samples.

Results

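The peroxiredoxins and the thioredoxin system of budding yeast were taken as 10 genes: the peroxiredoxin genes TSA1, TSA2, AHP1, PRX1 and DOT5, the thioredoxin genes TRX1, TRX2 and TRX3, and the thioredoxin reductase genes TRR1 and TRR2. They were found by gene symbol in the platform's probe annotation, among probe sets that name 1 gene and are not array controls. All 10 were measured, out of 5656 genes on the array. Each had 1 probe set, whose name carries no letter code for shared sequence, and none of the 328 probe sets that name several genes included a member. The samples were 3 independent steady-state chemostat cultures of Saccharomyces cerevisiae, here cultures 1, 2 and 3, each hybridized to its own Affymetrix array. They form 1 group, grown aerobically with glucose as the limiting nutrient at a dilution rate of 0.10 per h, 30 °C and pH 5.0, and fed a mineral medium whose glucose (7.5 g), ammonium sulphate (5.0 g) and zinc sulphate heptahydrate (4.5 mg) are stated per litre. The sources used here do not give the strain, and no culture under another limitation was analysed here, so values are described for this condition and no contrast or p-value is given.

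Peroxiredoxins destroy hydrogen peroxide and organic peroxides with a reactive cysteine, which becomes oxidised in the process. Thioredoxins are small proteins whose paired cysteines return electrons to the oxidised peroxiredoxin, and thioredoxin reductase recharges thioredoxin with electrons from NADPH. Yeast keeps a cytosolic set (TSA1, TSA2, AHP1, TRX1, TRX2, TRR1) and a mitochondrial set (PRX1, TRX3, TRR2), while the DOT5 product is nuclear. The transcription factors Yap1 and Skn7 are known to raise several of these genes when peroxide is added, and thioredoxins also serve ribonucleotide reductase and sulphate assimilation.

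Signals are linear probe set intensities as deposited. The arrays did not share a scale: the arrays of cultures 1, 2 and 3 had median gene signals of 54.7, 127 and 96.7. A gene is called bright here when its mean signal lay over the 90th percentile of all genes (589.6) and dim when it lay under the 30th (48.3), which says how bright a probe set is and is no ranking of transcript abundance between genes. A signal averages over all cells of a culture, so more cells that transcribe a gene and more transcript per cell cannot be told apart. The genes CYC1, COX5A and ADH2, known from respiring cells freed from glucose repression, were bright. ANB1, DAN1 and HXT1, known from low oxygen or high glucose, were dim. Yet TIR3, TIR4 and several PAU genes, named further on and also known from low oxygen, were not dim (TIR3 mean 200). The low-oxygen side of this check was thus mixed.

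Of the 10 genes 4 were bright (TSA1, AHP1, TRX1 and TRX2) and none was dim. By construction 566 of the 5656 genes were bright and 1697 were dim. The bright members all encode cytosolic proteins. No mitochondrial member was bright, the nearest being PRX1 at percentile 87.4. The lowest member signal on any array was 61.0 (TSA2 in culture 2), above the 26.3 reached by sense-strand control probe sets, for which the labelled sample holds no target.

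**Figure D1:**
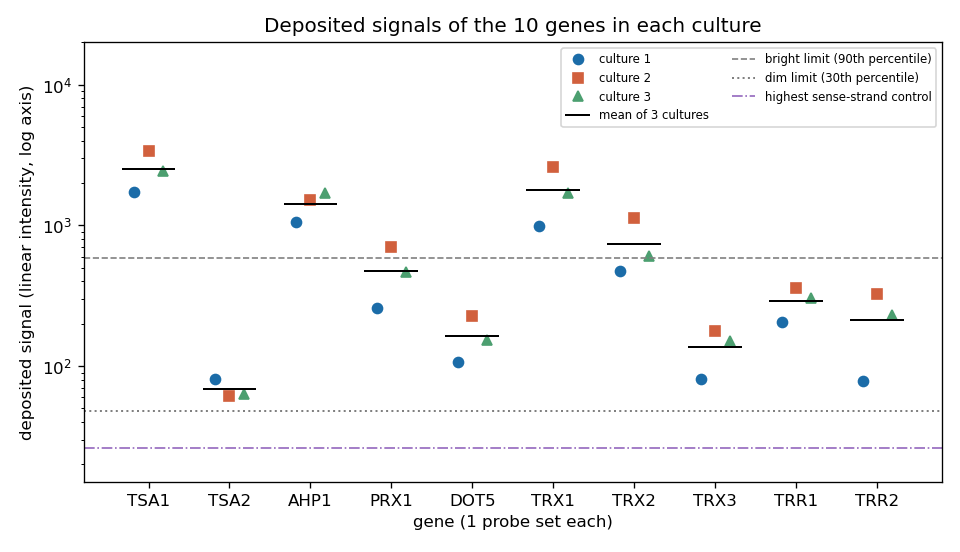
Deposited signal (linear intensity on a log axis) of each of the 10 genes, with 1 point per culture, a bar for the mean of 3 cultures, and lines for the bright limit (589.6), the dim limit (48.3) and the highest sense-strand control (26.3). TSA1, AHP1, TRX1 and TRX2 have means over the bright limit, and TSA2 is the gene whose highest point is culture 1.

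Differences between cultures were read after the arrays had been aligned on the median gene that was not dim, hereafter a common median. A deviation is the log2 signal of a gene in 1 culture minus its own mean over the 3 cultures on that scale, and a range is the highest minus the lowest of its 3 deviations. Of the 10 genes 1, TSA2, had a range over 1 (2-fold), against 3.49% of the 3959 genes that were not dim. The median range of the 10 genes was 0.36, beside 0.34 for those 3959 genes, so that as a group these genes varied about as much between cultures as the array did. On the deposited scale 6 of the 10 ranged over more than 2-fold, where 75.5% of all genes that were not dim did so. TSA2 was not among the 6.

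**Figure D2:**
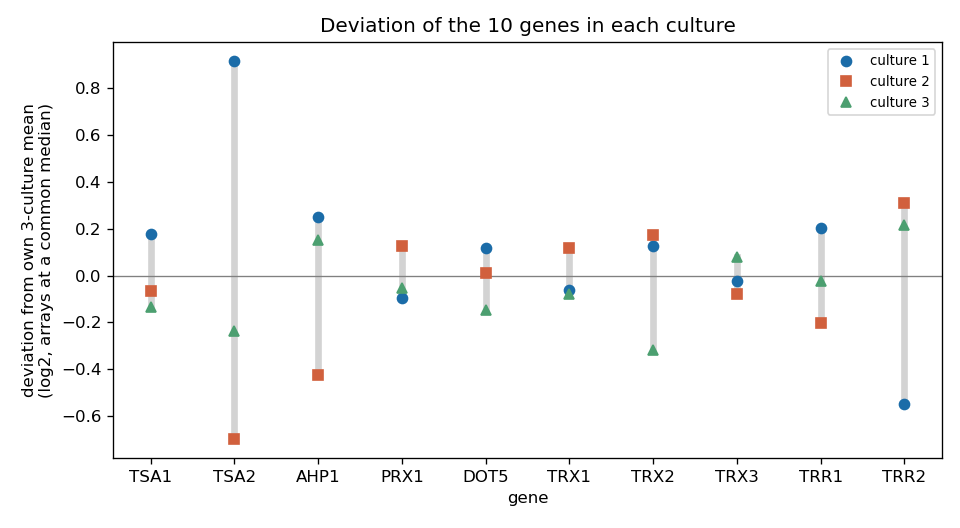
Deviation of each gene from its own mean over the 3 cultures (log2, arrays at a common median), 1 point per culture and a grey bar for the range. TSA2 spans 1.61 with culture 1 highest, TRR2 spans 0.85 with culture 1 lowest, and TRX3 spans 0.16.

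TSA1 encodes the major cytosolic peroxiredoxin, which is also known as a chaperone. Its signals were 1740 in culture 1, 3390 in culture 2 and 2435 in culture 3, a mean of 2522 ± 829 (SD, n = 3) at percentile 98.7 of all genes. The cultures kept the order of the array medians, and the deviations at a common median were 0.18, -0.07 and -0.13 in cultures 1, 2 and 3. Bright genes as a class deviated in the same sense, the 566 of them by a median of 0.10 in culture 1 and -0.05 in cultures 2 and 3. When brightness-dependent differences between arrays were removed by cyclic loess, the range of TSA1 went from 0.31 to 0.07. Its signal thus differed little between the cultures beyond what genes of like brightness did.

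TSA2 encodes a cytosolic peroxiredoxin closely related to that of TSA1. Its signals were 80.7, 61.0 and 63.1 in cultures 1, 2 and 3, a mean of 68.3 ± 10.8 (SD, n = 3) at percentile 39.8. The signal hardly differed on the deposited scale, by 1.32-fold, while the median gene differed by 2.31-fold. At a common median its deviations were 0.91, -0.70 and -0.24 in the same order of cultures, a 3.05-fold range. Only 19 of the 3959 genes that were not dim, TSA2 among them, had a range at least as wide. The range was 1.65 after quantile normalization and after cyclic loess, and 0.78 with arrays scaled to the hybridization controls, with culture 1 highest and culture 2 lowest under each. With the hybridization controls it was thus under 2-fold, as on the deposited scale (0.40). The call for TSA2 therefore depends on aligning the arrays on their genes.

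The call for TSA2 also rests on culture 1. Its range fell under 2-fold, to 0.46, when culture 1 was left out. It stayed over 2-fold, at 1.16 without culture 2 and 1.61 without culture 3. Leaving out a gene's highest or lowest culture narrows its range by construction, here and for the genes below. Culture 1 gave the array of lowest median, and it held the highest deposited signal for 0.278% of genes that were not dim, or 11 in number. Besides TSA2 these were the aquaporin gene AQY1, the cell wall mannoprotein gene TIR4, the RNA gene SNR67, YIL171W and 6 seripauperin (PAU) genes. The probe sets of YIL171W and of the PAU genes are letter-coded, and those of the PAU genes may report several near-identical family members. Apart from TSA2 no member and no gene of the pathway lists described further on was among them, and the 11 were identified after their values were seen.

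Control signals also differed less between arrays than most genes did. The highest sense-strand control read 23.2, 26.3 and 24.2 in cultures 1, 2 and 3, a 1.14-fold difference, and the mean of 9 hybridization control probe sets differed by 1.48-fold. The TSA2 signals lay above these sense-strand values. In culture 1 the TSA2 signal was over the median gene signal of its array (80.7 against 54.7). In cultures 2 and 3 it was under that median (61.0 against 127 and 63.1 against 96.7). The part of nonspecific signal in the TSA2 range was not tested.

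**Figure D3:**
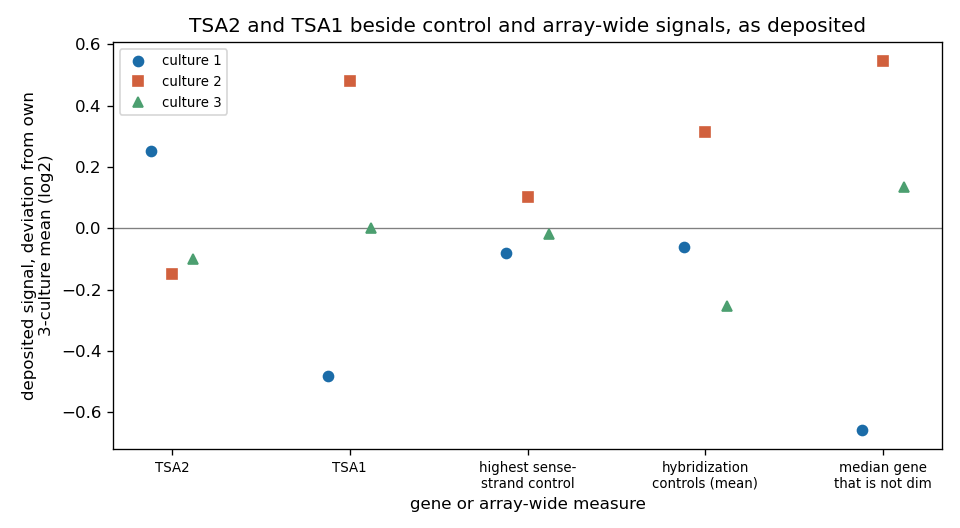
Deposited signals as log2 deviations from their own mean over the 3 cultures, 1 point per culture, for TSA2, TSA1, the highest sense-strand control, the geometric mean of the hybridization controls and the median gene that was not dim. TSA1 follows the median gene (0.48 and 0.55 in culture 2), whereas TSA2 deviates by 0.25 in culture 1 and -0.15 in culture 2.

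AHP1 encodes a cytosolic peroxiredoxin that prefers alkyl hydroperoxides. Its signals were 1053, 1525 and 1708 in cultures 1, 2 and 3, with a mean of 1429 ± 338 (SD, n = 3) at percentile 96.3. AHP1 was the only member with its highest deposited signal in culture 3. At a common median it deviated by 0.25, -0.42 and 0.15, so that culture 2 was low, and the range was 0.67 (percentile 87.2 of ranges). The low culture depends on the scale, since the deposited signal was lowest in culture 1. Without culture 2 the range was 0.10, so cultures 1 and 3 hardly differed.

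PRX1 encodes the mitochondrial 1-Cys peroxiredoxin. Its signals were 259, 698 and 463 in cultures 1, 2 and 3, a mean of 473 ± 220 (SD, n = 3). The spread was almost wholly array-wide, with a range of 0.22 at a common median. DOT5, for the nuclear peroxiredoxin, read 106, 228 and 154, a mean of 163 ± 61.2 (SD, n = 3) at percentile 66.5, and ranged over 0.26. Both genes followed the array medians in order.

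The cytosolic thioredoxins TRX1 and TRX2 are close paralogues that stand in for each other in many reactions. TRX1 read 997, 2611 and 1712 in cultures 1, 2 and 3, a mean of 1773 ± 808 (SD, n = 3) at percentile 97.6. TRX2, known as the more peroxide-responsive of the pair, read 475, 1133 and 606, a mean of 738 ± 348 (SD, n = 3) at percentile 92.4. Deviations at a common median were -0.06, 0.12 and -0.08 for TRX1 and 0.13, 0.17 and -0.32 for TRX2. The paralogues thus both stood highest in culture 2, and TRX2 was low in culture 3. The TRX2 range was 0.49, and 0.04 without culture 3. Closely related transcripts can share array sequence, and how far these probe sets, or those of TSA1 and TSA2, bind both paralogues was not tested.

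TRX3, the mitochondrial thioredoxin gene, read 80.5, 179 and 150 in cultures 1, 2 and 3, a mean of 137 ± 50.7 (SD, n = 3) at percentile 61.8. Its deviations of -0.02, -0.08 and 0.08 made the narrowest range of the 10 genes, 0.16. As many as 3416 of the 3959 genes that were not dim ranged at least as widely.

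The reductase genes went opposite ways in culture 1. TRR1, for the cytosolic enzyme, read 206, 359 and 306 in cultures 1, 2 and 3, a mean of 291 ± 77.5 (SD, n = 3) at percentile 80.0. TRR2, for the mitochondrial enzyme, read 78.4, 327 and 230, a mean of 212 ± 125 (SD, n = 3) at percentile 72.9. At a common median TRR1 deviated by 0.20, -0.20 and -0.02 and TRR2 by -0.55, 0.31 and 0.21. Culture 1 was thus the highest for TRR1 and the lowest for TRR2, as it was also after cyclic loess (0.23 and -0.51). On the deposited scale both genes were lowest there, with TRR2 spanning 4.17-fold and TRR1 1.74-fold.

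The TRR2 range of 0.85 (1.81-fold) was exceeded or equalled by 243 of the 3959 genes, TRR2 counted, and stayed under 2-fold. It came from culture 1, since without that culture it was 0.09. PRX1 and TRX3, the other mitochondrial members, deviated by -0.10 and -0.02 in culture 1, so the low value was not shared by the mitochondrial set as measured here.

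**Figure D4:**
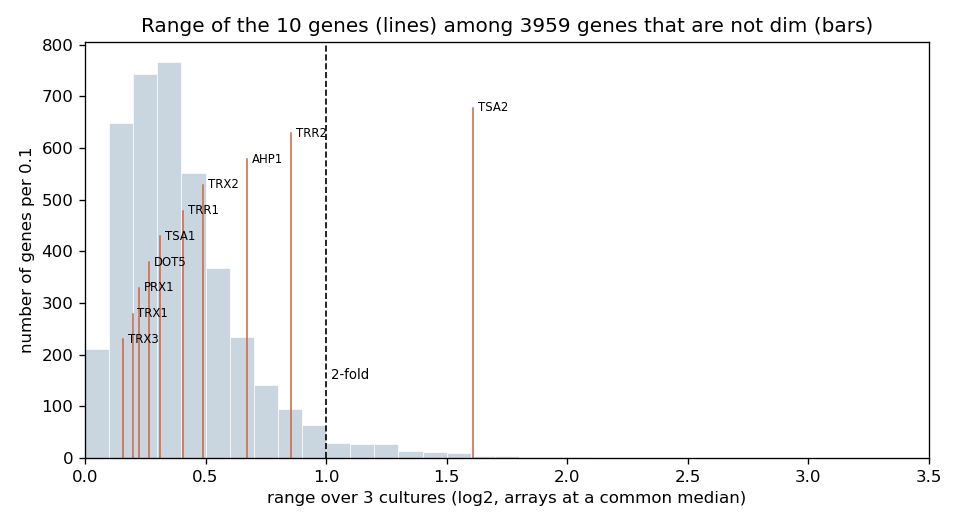
Distribution of ranges over the 3 cultures (log2, common median, bars of width 0.1) for the 3959 genes that were not dim, with a line for each of the 10 genes and a dashed line at 2-fold. TSA2 lies past the dashed line at 1.61, TRR2 and AHP1 come next at 0.85 and 0.67, and the other 7 lie at or under 0.49.

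The median deviation of the 10 genes was 0.12 in culture 1, with 6 above 0, -0.03 in culture 2, with 5 above 0, and -0.07 in culture 3, with 3 above 0. The same medians over all genes that were not dim are 0 by construction. After cyclic loess the medians were 0.05, 0.02 and -0.04, so no culture stood out for the 10 genes together. The most alike pair in deviations was PRX1 and TRX1, with a root mean square difference of 0.02 over the 3 cultures, and the least alike was TSA2 and TRR2, with 1.06.

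Genes with the most similar deviations were sought among 3949 others that were not dim. For TSA2 they were AQY1 (root mean square difference 0.05), PAU3 (0.11) and PAU7 (0.15), and AQY1 was the only gene within 0.1. AQY1 read 86.9, 66.7 and 64.1 in cultures 1, 2 and 3, and PAU3 and PAU7 belong to the near-identical seripauperin family. Like TSA2, these 3 genes differed little as deposited. Aligning the arrays gives any such signal deviations near the reverse of the array-wide shifts (-0.66, 0.55 and 0.13). The likeness is thus partly set by the alignment. For TSA1 they were NCP1, for an NADPH-dependent reductase that serves sterol synthesis, GET3, for an ATPase of membrane protein insertion, and YCR023C, each with a difference under 0.01. TSA1 had 562 genes within 0.1, so such likeness to it over 3 cultures was common.

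The genes next to the members on the chromosome, 20 in all, were looked up in RefSeq. Of the 16 that were not dim, 1 ranged over 2-fold, the mannoprotein gene TIR3 beside DOT5, at 1.08. Among all genes that were not dim the share was 3.49%. The neighbours of TSA2, the polyphosphatase gene PPN1 and the guanylate kinase gene GUK1, ranged over 0.05 and 0.20, so the TSA2 pattern was not shared by its neighbours. AHP1 lies beside CCW12, for an abundant cell wall protein, which also stood high in culture 1 (0.46) and low in culture 2 (-0.36), at a common median. In culture 3 they went opposite ways, CCW12 at -0.12 and AHP1 at 0.15. The other neighbour of AHP1, YLR108C, was dim and ranged over 0.03. The 11 genes that were not dim among probe sets numbered within 10 of that of TSA2 had a widest range of 0.81, and none passed 2-fold. With so few genes neither count can be told from the 3.49% share.

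The surrounding pathway was read from 6 lists of 50 genes, all measured, of which 15 were bright and 5 dim. Among the 45 that were not dim 2 ranged over 2-fold at a common median, SRX1 and ZWF1, beside the 3.49% of all genes, and the median range was 0.34. SRX1 encodes sulfiredoxin, which repairs overoxidised Tsa1. It read 52.6, 55.4 and 74.9 in cultures 1, 2 and 3 (61.0 ± 12.2, SD, n = 3), and deviated by 0.46, -0.67 and 0.18. SRX1 lay at percentile 36.7, and on the deposited scale its signal differed by 1.43-fold. The part of nonspecific signal in its range was not tested. ZWF1 encodes glucose-6-phosphate dehydrogenase, the entry to the pentose phosphate pathway and a main source of NADPH. It read 546, 686 and 1061 (764 ± 266, SD, n = 3), and deviated by 0.23, -0.65 and 0.39. SRX1 and ZWF1 both stood low in culture 2 at a common median, although on the deposited scale both were lowest in culture 1. TSA2 and AHP1 also stood low in culture 2 at a common median, but of the 10 members 5 lay above 0 there and 5 below. Without culture 2 the ranges were 0.29 for SRX1 and 0.16 for ZWF1, without culture 1 they were 0.85 and 1.04, and without culture 3 they were 1.14 and 0.88.

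The 11 enzymes that thioredoxin or its targets serve included 3 bright and 2 dim genes. RNR4, a small subunit of ribonucleotide reductase, had the highest percentile of them (95.9), and GPX2 of the glutathione peroxidase family the lowest (7.66), with a mean signal of 11.4 ± 5.40 (SD, n = 3). Of the 11 genes for NADPH supply 7 were bright and 1 was dim. The acetaldehyde dehydrogenase gene ALD6 had the highest percentile (97.0) and the NAD kinase gene UTR1 the lowest (26.7). ALD6 has 2 probe sets, of which the represented one is given. With the mean over probe sets 2 genes of this list passed 2-fold, rather than 1. The NADPH list was the one of the 6 with most bright genes.

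Among 7 regulators none was bright and 1 was dim, YBP1, for a protein that binds Yap1, at 17.9 ± 7.53 (SD, n = 3). The stress factor gene MSN2 had the highest percentile (69.2), and its relative MSN4 had the widest range of the list, 0.47. YAP1 read 93.1, 249 and 154 in cultures 1, 2 and 3 and ranged over 0.28, and SKN7 read 91.8, 250.0 and 144 and ranged over 0.38. YAP1 and SKN7 were picked after their values were seen, as the factors named in the background. In culture 2 they deviated by 0.16 and 0.20.

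The glutathione genes, another thiol system, included 2 bright and no dim members among 11, from GRX8 at percentile 43.6 to GRX1 at 95.7. Their widest range was that of GRX3, 0.53. Of 5 genes for other peroxide and superoxide defence 3 were bright and 1, the catalase gene CTT1, was dim at percentile 19.0. SOD1, for the copper-zinc superoxide dismutase, had the highest percentile (97.8), and the mitochondrial SOD2 had the widest range, 0.78, with deviations of 0.41, -0.37 and -0.06. The 5 other Yap1 targets held no bright and no dim gene, OYE2 having the highest percentile (81.6) and OYE3 the lowest (47.4). OYE3, for an NADPH oxidoreductase, had the widest range of that list, 0.68, and was high in culture 1 (0.44). In that culture 3 of the 5 genes lay above their own mean and 2 below, with ATR1 at -0.26.

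**Figure D5:**
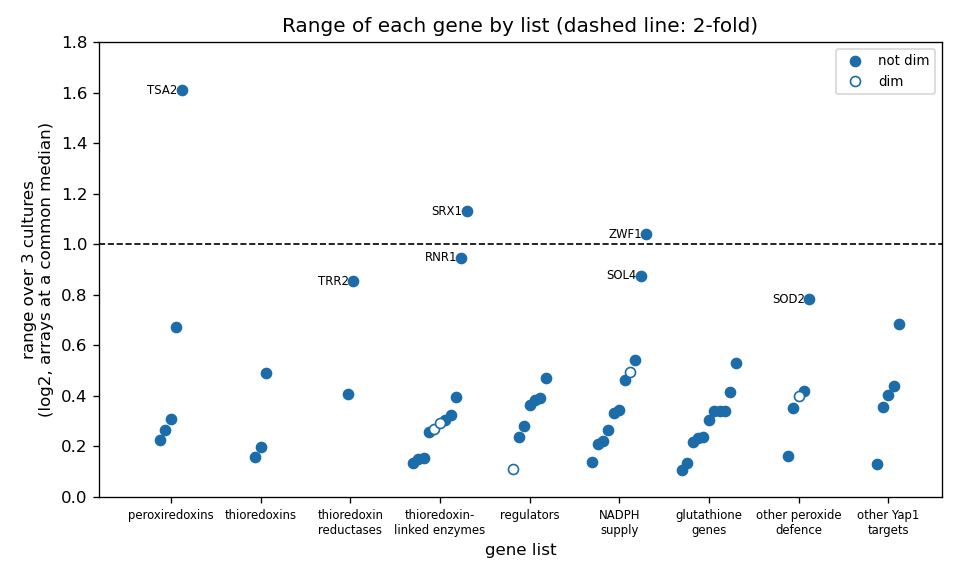
Range over the 3 cultures (log2, common median) of each gene by list, with filled points for genes that were not dim, open points for dim genes and a dashed line at 2-fold. TSA2 at 1.61, SRX1 at 1.13 and ZWF1 at 1.04 lie above the line, and SOD2 has the widest range of its list at 0.78.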

How the data were processed

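Intensities of 9335 probe sets on 3 Affymetrix arrays were used as the authors deposited them, on a linear scale. The submitters' processing notes name GCOS, while for the summary method, background correction and scaling nothing is given in the sources used here. RNA came from independent culture replicates, labelled by the one-cycle biotin assay, per the labels' protocols.

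The 6504 probe sets with 1 gene were named through RefSeq (R64), where every one was found, without use of coordinates. A gene with several probe sets was represented by one without a letter code, or else by the one of higher mean. Signals were floored at 1, taken to log2 and shifted so that the median deviation of not-dim genes was 0 on each array. With 1 group, no test was made. The number of arrays limits the precision. Members and lists were chosen with earlier results of these data known. Besides the members, the text names by rule the genes of each list with the highest and lowest mean signal and those over 2-fold, or else the widest range. COX5A, ADH2, CYC1, ANB1, DAN1 and HXT1 were read as a check of the condition. The rule also covers the genes with deviations most like those of TSA2 and TSA1. Outside the rule fall AHP1's and TSA2's neighbours, TIR3, YAP1, SKN7, ATR1, and SOL4 and RNR1 in the plot of lists. So do TIR4, SNR67, YIL171W and the PAU genes as a group, named for their high signal in culture 1. The alternatives are given in the closing section (limma 3.58.1 in R 4.3.3, Python 3.11.15, pandas 2.3.3). The range step was tested on simulated data, with planted changes larger than the 2-fold limit and the same noise for every gene. The simulation held no nonspecific signal, so it does not bear on that part of the TSA2 range. No protein or promoter sequence was used here.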

Additional observations from a re-analysis of the deposited data

How the results depend on the processing

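The scale of the arrays mattered most. As deposited, 6 members, 28 genes of the 6 pathway lists and 2989 of all not-dim genes passed 2-fold, with median ranges of 1.13 for members and 1.16 for the lists and median member deviations of -0.54 in culture 1 and 0.52 in culture 2. Scaling to the hybridization controls, chosen after seeing the data, gave 4, 27 and 2279 genes, median ranges of 0.88 and 1.03, and median member deviations of -0.48, 0.20 and 0.32 in cultures 1, 2 and 3. In both of these settings array-wide differences stay in by construction. TSA2 passed 2-fold in neither. The deviation of TSA2 in culture 3 turned to 0.15 with the hybridization controls, and at a common median it was -0.58 without culture 2 and 0.23 without culture 1, where it is taken from the mean of 2 cultures. With log2(signal + 16), 88 of all genes and 1 of the lists passed, and with no limit for dim genes 498 of all genes passed. With dim set under the 50th percentile 1 member, TSA2, was dim, so that 0 members passed 2-fold, and 1 gene of the lists did. Leaving out a culture gave 0 to 1 members, 31 to 95 of all genes and 0 to 1 genes of the lists past 2-fold, and a median range of 0.16 to 0.24 in the lists, where fewer arrays narrow a range by construction. With the mean over probe sets 3 genes of the lists passed 2-fold, 2 of them for NADPH supply. Quantile normalization, cyclic loess and the mean over probe sets left 1 member past 2-fold. So did flooring at the top sense-strand control, also chosen after seeing the data, which lies under every member signal and so could not change them. The number of bright members was 3 over the 95th percentile and 5 over the 80th. Levels, ranges and deviations of single members were set against their main value 490 times over these settings. In 408 of these they moved by less than the member's SD over the cultures, with no change of sign for TSA2. Changes of sign of TSA2 were counted with the values that moved further, whatever their size. The measure is loosest for TSA2, whose log2 SD was 0.83. Its deviation of 0.25 in culture 1 on the deposited scale, against 0.91 at a common median, was counted as not moved. Part of these comparisons could hardly move. Flooring, the mean over probe sets (members have 1 each) and the dim limits act on members only through the array shift. Most of the values that moved further did so on the deposited scale or with the hybridization controls. No paired analysis was possible because the cultures form 1 group.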
